A study of Homo sapiens with 8 samples.

Results

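Binding of the RNA-binding protein IGF2BP1 along the HMGA2 mRNA was mapped from the eCLIP peaks of H1299 cells with and without the IGF2BP1 inhibitor AVJ16. The peaks were chosen by position alone, as all peaks on the plus strand within the HMGA2 gene of GENCODE release 44 (GRCh38, chr12:65824460-65966291). They numbered 33 of the 22311 peaks listed for DMSO and 37 of the 22123 peaks listed for AVJ16. H1299 is a human lung carcinoma line, labelled wild type, and was given either 1.5 µM AVJ16 or 0.01% DMSO for 24 h before UV crosslinking (254 nm, 400 mJ/cm2). Each treatment had 2 immunoprecipitated (IP) libraries and 2 size-matched input (SMInput) libraries, made in 2 batches from 1 thaw of cells. The authors deposited 1 list per treatment with both replicates together, so a value below has no error between replicates and no test was possible. Each peak carries a log2 fold enrichment of IP over SMInput, which was at least 3 in both lists, and a −log10 p, which stops at 400.

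HMGA2 is an architectural chromatin protein that binds AT-rich DNA through its AT-hooks, is abundant in embryonic cells and is made again in many tumours. Its long 3’UTR is a textbook target of the let-7 microRNAs, which pair with it through their seed and repress the mRNA. IGF2BP1 is an oncofetal protein that binds many mRNAs, mostly in the 3’UTR, and is known to protect targets of let-7.

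Every HMGA2 peak in both lists lay in the 3’UTR of the transcript HMGA2-204, which spans chr12:65963293-65966291 (2999 nt). No peak lay in the 327 nt of coding sequence, in an intron, or in an exon of any of the other 10 annotated transcripts. That includes HMGA2-210, whose own 3’UTR of 7421 nt ends upstream of this exon. ENSG00000277945, a noncoding gene annotated on the same strand inside HMGA2, had no peak, and the opposite strand had 0 peaks in either list.

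The sequences that carry the map are the most enriched peaks and the let-7 seed matches, read 5′ to 3′ on the plus strand of GRCh38. In the let-7 windows capitals mark the bases that pair with the seed, and in the microRNA (RefSeq) they mark the seed, bases 2 to 8. The first 3 lines are the most enriched DMSO peak (chr12:65964657-65964670), the most enriched AVJ16 peak (chr12:65964692-65964710) and the AVJ16 peak of the site with the largest gain (chr12:65965677-65965699). The windows lie at chr12:65963298-65963323, chr12:65964533-65964558, chr12:65964945-65964970 and chr12:65965798-65965823.
DMSO peak 23: guucuuuuuguaca
AVJ16 peak 26: aaucuccuuacuguguuuc
AVJ16 peak 33: uuuuagaaaccucauuggccagc
let-7 match 1, nt 21: gccaacguucgauuuCUACCUCagca
let-7 match 3, nt 1256: ccccacuacucaauaCUACCUCugaa
let-7 match 5, nt 1668: uugacuugcaaagacCUACCUCcaga
let-7 match 7, nt 2521: aaucaaaacacacuaCUACCUCuuaa
hsa-let-7a-5p: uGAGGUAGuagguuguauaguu

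The HMGA2 3’UTR was among those with the most peaks in these cells. Its 33 DMSO peaks placed it 22nd among 5178 protein-coding genes with a peak, and its 33 peaks in the 3’UTR placed it 10th of 4442 genes. With AVJ16 its 37 peaks placed it 18th of 4660 genes, and 12th of 3968 by peaks in the 3’UTR. The gene with the median number had 3 peaks in both lists. Peak counts depend on how the peak caller splits a bound stretch, and by bound length HMGA2 ranked lower, 100th with DMSO (1195 nt) and 110th with AVJ16 (1245 nt).

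HMGA2 peaks were short and strongly enriched. Their median length was 35 nt with DMSO and 23 nt with AVJ16, against 67 and 60 nt over all peaks. Their median log2 fold enrichment was 4.01 with DMSO (range 3.15 to 6.48) and 4.26 with AVJ16 (range 3.34 to 6.09), against 3.63 and 3.61 over all peaks. An enrichment of 5 or more was reached by 10 of the 33 DMSO peaks and by 8 of the 37 AVJ16 peaks, against 4.54% and 3.72% of all peaks. The −log10 p was at its limit of 400 for 13 DMSO peaks (39.4%) and 10 AVJ16 peaks (27.0%), against 3.03% and 3.61% of all peaks. By its best peak, HMGA2 was the 8th gene with DMSO and the 20th with AVJ16.

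Peaks covered 39.8% of the 3’UTR with DMSO and 41.5% with AVJ16. They were unevenly spread. The bases from nt 1 to 999 after the stop codon were covered to 55.1% with DMSO and 52.3% with AVJ16, those from nt 1000 to 1999 to 46.0% and 52.1%, and those from nt 2000 to 2999 to 18.5% and 20.2%. The bound part began 290 nt after the stop codon, and both lists were empty from nt 1775 to 2095 (321 nt) and from nt 2134 to 2373 (240 nt). The last 152 nt before the annotated end also had no peak.

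**Figure D1:**
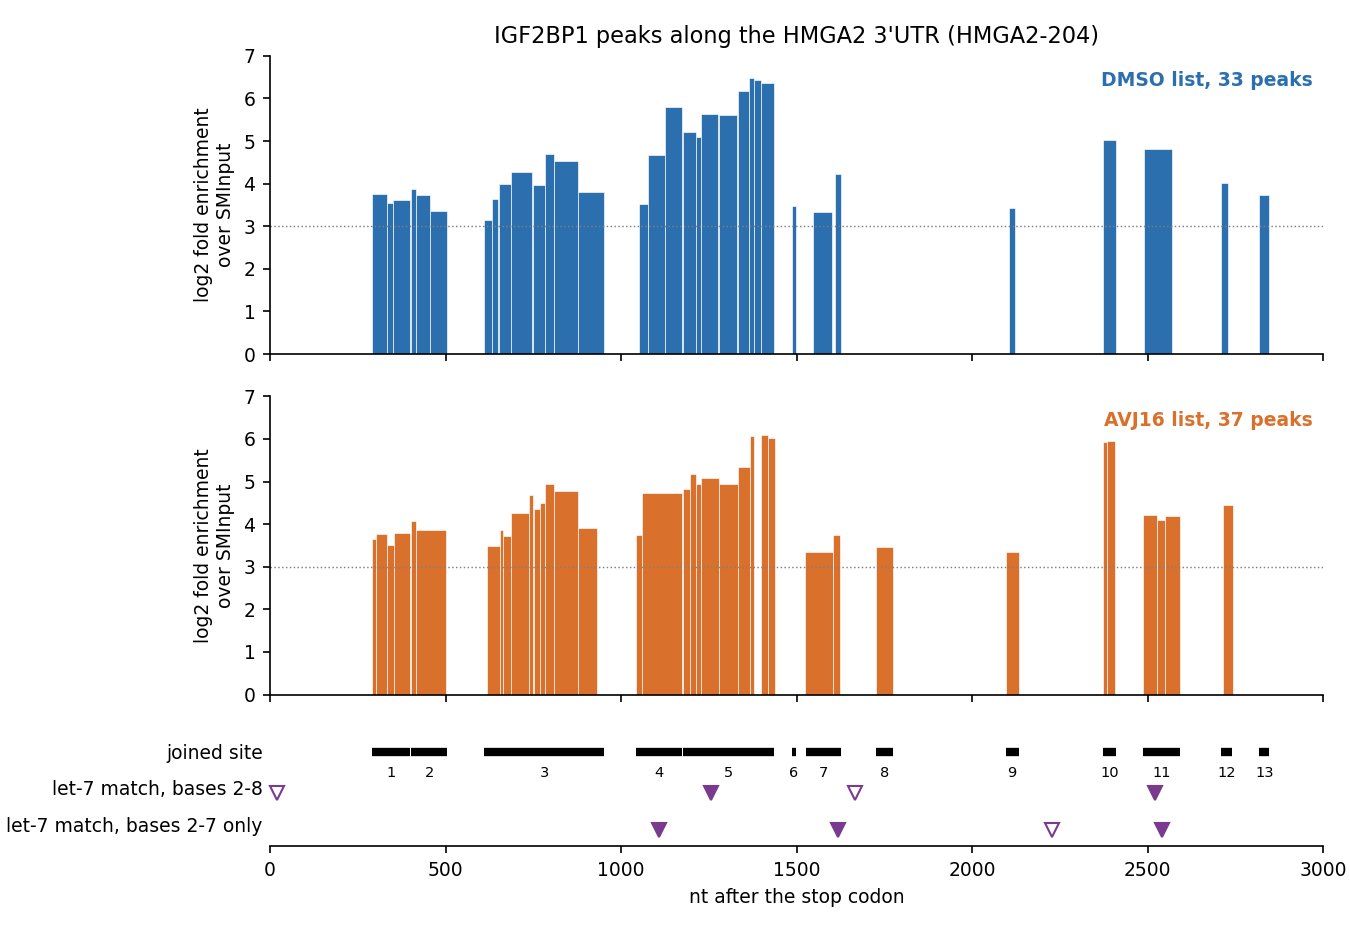
Peaks of the DMSO list (upper panel) and the AVJ16 list (middle panel) along the 2999 nt of the HMGA2 3’UTR. The x axis gives nt after the stop codon, bar height the log2 fold enrichment over SMInput, bar width the peak, and the dotted line the lowest listed enrichment of 3. Black bars below are the 13 joined sites, and triangles are let-7 matches, filled where a peak covers them. The highest bars of both lists stand in site 5, and between nt 1775 and 2095 there are none.

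When peaks of either list that touch or overlap were joined, the 3’UTR held 13 sites. Of these, 10 had peaks in both lists, 2 had a DMSO peak only and 1 had an AVJ16 peak only. Over all genes, 43.5% of 21385 sites joined in the same way had overlapping peaks in both lists. The sites are numbered from the stop codon.

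Sites 1 and 2 began the bound part. Site 1 (nt 291 to 399, chr12:65963583-65963691) held 3 DMSO peaks of 3.75, 3.55 and 3.63 and 4 AVJ16 peaks of 3.66, 3.78, 3.52 and 3.80 (log2 fold enrichment, as for all peak values below). Over the 108 nt in both lists its mean difference, AVJ16 minus DMSO, was 0.07. Site 2 (nt 402 to 505, chr12:65963694-65963797) held DMSO peaks of 3.87, 3.72 and 3.36 and AVJ16 peaks of 4.07 and 3.85, with a mean difference of 0.31. Site 1 was thus nearly level between the lists, whereas site 2 was higher with AVJ16 along its whole shared length, by up to 0.50.

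Site 3 (nt 611 to 951, chr12:65963903-65964243) was the longest, with 341 nt. Its 8 DMSO peaks climbed from 3.15 at the 5′ edge over 3.65, 3.99, 4.26 and 3.96 to 4.69 and 4.52, and ended at 3.81. Its 10 AVJ16 peaks had the same form, with 3.49, 3.87, 3.72, 4.26, 4.68, 4.35, 4.49, 4.93, 4.78 and 3.92. The highest peak lay at nt 785 in both lists. The mean difference was 0.14, and 19 of 311 nt in both lists were higher by more than 0.5 with AVJ16. The study uses 0.5 as its size limit for a changed peak, over the same cluster and beside an interaction test. That test was not repeated here, so a difference past 0.5 is no call of a change.

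Site 4 (nt 1042 to 1174, chr12:65964334-65964466) was where the lists were cut most differently. The DMSO list held 3 peaks that climbed from 3.53 over 4.68 to 5.79. The AVJ16 list held a short peak of 3.74 and a single peak of 115 nt with 4.74. The paired differences of the DMSO peaks were therefore 1.21, 0.06 and −1.05, all against that 1 long peak. Averaged over the 120 nt in both lists, the site differed by −0.21.

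Site 5 (nt 1177 to 1437, chr12:65964469-65964729) was the summit of the map. Its 8 DMSO peaks were 5.21, 5.09, 5.63, 5.61, 6.16, 6.48, 6.43 and 6.37. The peak of 6.48, at nt 1365 to 1378, ranked 12th of all 22311 DMSO peaks. The last 4 were all 4 of the HMGA2 DMSO peaks with an enrichment of 6 or more, a level that 78 peaks of the whole DMSO list reached. The 9 AVJ16 peaks were 4.83, 5.18, 4.94, 5.09, 4.93, 5.34, 6.06, 6.09 and 6.03, and the last 3 of them were among 42 such peaks of the AVJ16 list.

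With AVJ16 site 5 kept its form at a lower level. The mean difference over the 234 nt in both lists was −0.50, just past the limit (range −1.13 to 0.09), and 137 nt were lower by more than 0.5. The largest paired difference was at the DMSO peak of 6.16, whose AVJ16 partner had 5.34 (−0.82). The DMSO peak of 6.48 had a partner of 6.06, a difference of −0.42. The AVJ16 list had no peak over 20 nt in the middle of the summit, and the DMSO peak of 6.43 there (21 nt) met its partner in 1 nt.

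Past the summit the map was sparse up to nt 2133. Site 6 (nt 1488 to 1498, chr12:65964780-65964790) had 1 DMSO peak of 11 nt with 3.47 and none with AVJ16. Site 7 (nt 1526 to 1627, chr12:65964818-65964919) had 2 peaks in each list, 3.33 and 4.22 with DMSO and 3.36 and 3.74 with AVJ16, and a mean difference of −0.08. Site 8 (nt 1726 to 1774, chr12:65965018-65965066) had 1 AVJ16 peak with 3.46 and none with DMSO. Site 9 (nt 2096 to 2133, chr12:65965388-65965425) had 1 peak in each list, 3.42 with DMSO and 3.34 with AVJ16. Sites 6 and 8, found in 1 list only, were thus within 0.5 of the lowest enrichment a list can hold, and an absent peak says only that the site missed a threshold.

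In the 3′ part, neighbouring sites differed in opposite directions. Site 10 (nt 2374 to 2409, chr12:65965666-65965701) was the most enriched one outside the summit with AVJ16. Its DMSO peak had 5.03 and its 2 AVJ16 peaks 5.94 and 5.96, so all 33 nt in both lists were higher with AVJ16, by 0.92 on average. Site 10 also had −log10 p values far below the limit, at 39.0 with DMSO and at most 51.7 with AVJ16.

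Site 11 (nt 2488 to 2592, chr12:65965780-65965884) had 1 DMSO peak of 80 nt with 4.81 and 3 AVJ16 peaks with 4.22, 4.09 and 4.20. All 80 nt in both lists were lower with AVJ16 by more than 0.5, with differences from −0.59 to −0.72 and a mean difference of −0.63. Site 12 (nt 2709 to 2742, chr12:65966001-65966034) had a DMSO peak of 4.01 and an AVJ16 peak of 4.46 that shared 12 nt. Site 13 (nt 2818 to 2847, chr12:65966110-65966139) had a DMSO peak of 3.73 and none with AVJ16. Sites 10 and 11 were thus the sites that differed in 1 direction over all of their shared bases by more than 0.5.

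**Figure D2:**
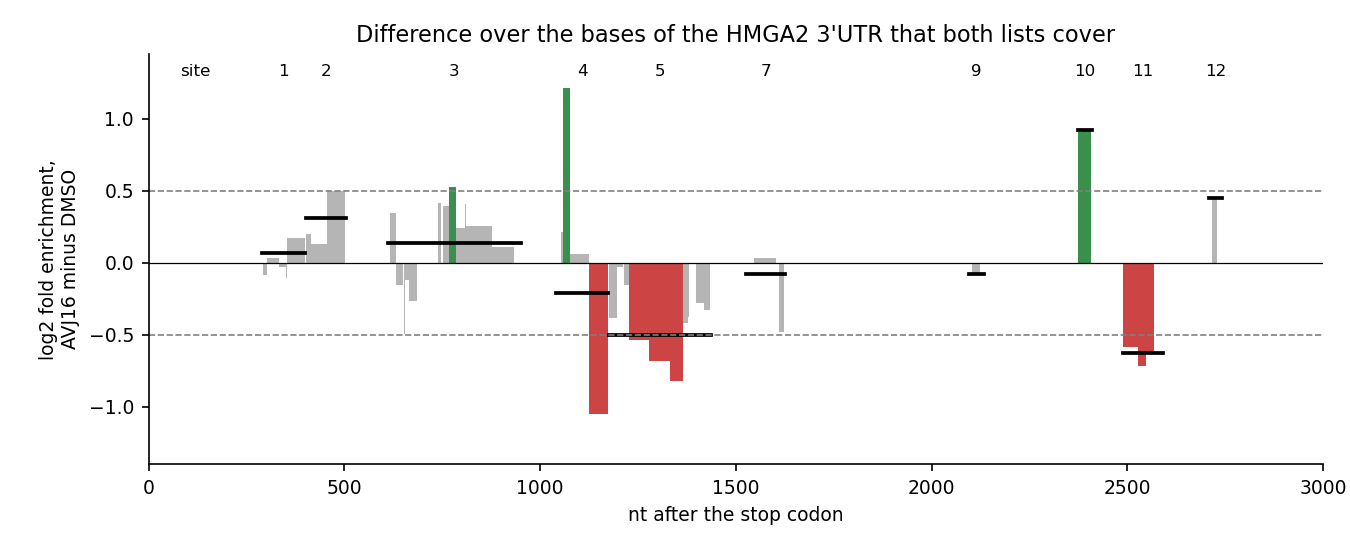
Difference in log2 fold enrichment (AVJ16 minus DMSO, y axis) over the bases of the HMGA2 3’UTR covered in both lists, against nt after the stop codon. Red bars are lower and green bars higher by more than 0.5 (dashed lines), grey bars lie between, and black lines are the means of the 10 sites in both lists. The red stretches lie in sites 4, 5 and 11, and site 10 is green throughout.

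By an overlap of at least 1 nt, or by bases, HMGA2 peaks were retained with AVJ16 more often than all peaks. Of the 33 DMSO peaks, 31 overlapped an AVJ16 peak by at least 1 nt (93.9%, 95% Wilson interval 80.4 to 98.3%, counting error only), against 66.2% of all DMSO peaks. Of the 37 AVJ16 peaks, 36 overlapped a DMSO peak (97.3%, interval 86.2 to 99.5%), against 70.8% of all AVJ16 peaks. The intervals treat touching peaks of 1 mRNA as independent, which they are not. When 50% of both peaks had to overlap, 66.7% of the DMSO peaks had a partner, and the all-gene share was not computed. By bases, 91.0% of the DMSO-bound and 87.3% of the AVJ16-bound nt were bound in the other list, against 56.2% and 62.0% over all peaks. Strong peaks of all genes were also retained more often: of DMSO peaks at 5 to 6, 96.3% overlapped an AVJ16 peak, and of those at 3 to 3.5, 48.8%. HMGA2 had 4 of 5 peaks retained at 3 to 3.5 and 10 of 11 at 3.5 to 4, where 69.7% of all peaks were.

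HMGA2 peaks differed from each other in both direction and size, as shared peaks of all genes did. Over the 31 shared DMSO peaks the median difference was −0.01 (95% interval from order statistics −0.28 to 0.17), with an SD of 0.48 and a range from −1.05 to 1.21. Over all shared peaks the median was −0.06, with an SD of 0.56 and a range from −2.38 to 2.33. Both ends of the HMGA2 range were pairs with the same 115-nt AVJ16 peak of site 4. By more than 0.5, 5 HMGA2 peaks were lower (16.1%) and 2 were higher (6.45%), against 20.1% and 12.6% of all shared peaks. The other 24 lay within 0.5, and 16 of the 31 were below 0. Counted by peaks, the HMGA2 shares lay below those of all genes in both directions, but on counts of only 5 and 2. Among peaks with an enrichment of 4 or more in both lists, however, the median over 16 shared HMGA2 peaks was −0.33, where all genes had −0.06. This value lies below the interval above, but that is no test. The 16 are part of the 31, and the interval treats touching peaks as independent, which they are not. In that subset 5 of the 16 were lower by more than 0.5, against 18.1% of all such peaks, and 43.3% of the shared bases were lower, against 17.7%. This cut does not match peaks for strength. At DMSO enrichments of 4 to 5, HMGA2 had 1 of 7 shared peaks lower, against 37.7% over all genes. At 5 to 6 HMGA2 had 3 of 6, against 56.0%, and at 6 to 8 1 of 4, against 68.8%. By AVJ16 enrichment in these ranges HMGA2 had 4 of 15, 2 of 5 and 0 of 3 lower, against 12.8%, 7.55% and 7.32%.

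Counted by bases, the lower share of HMGA2 was close to that of all genes and the higher share below it. Of 1087 nt bound in both lists, 264 (24.3%) were lower by more than 0.5 with AVJ16, against 20.7% of all shared bases. They lay in site 4 (47 nt), site 5 (137 nt) and site 11 (80 nt). Only 68 nt (6.26%) were higher by more than 0.5, against 12.5%. By sites, 2 of 10 had a mean lower by more than 0.5 (sites 5 and 11), where 18.7% of all 9292 shared sites did, and 1 of 10 a higher mean (site 10), where 11.5% did.

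**Figure D3:**
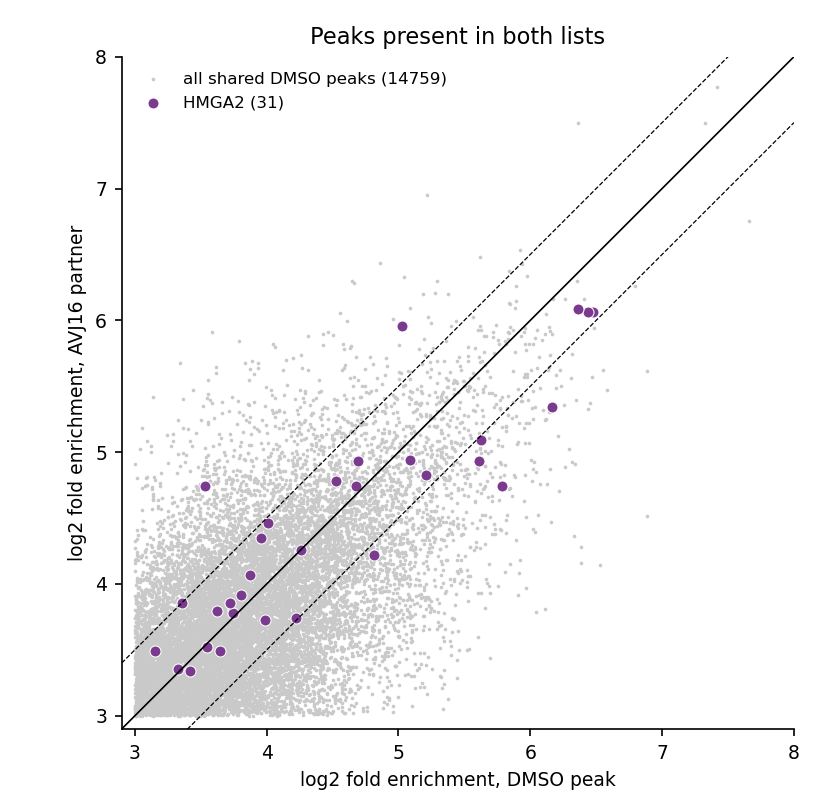
Log2 fold enrichment of each shared DMSO peak (x axis) and of its AVJ16 partner (y axis), for all genes (grey, 14759 peaks) and HMGA2 (purple, 31 peaks). The solid line marks equal values and the dashed lines a difference of 0.5. The 5 HMGA2 peaks below the lower dashed line have DMSO values from 4.81 to 6.16.

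The lower values of the summit were set beside peaks of equal strength. Over all genes, shared peaks with a DMSO enrichment of 5 to 6 had a median difference of −0.61, and those of 6 to 8 had −0.78. HMGA2 had −0.46 over 6 peaks and −0.40 over 4 peaks in the same ranges. Grouped by AVJ16 enrichment instead, with pairs started from the AVJ16 peaks, the direction over all genes turned: peaks of 6 to 8 had a median difference of 0.47, whereas the 3 HMGA2 peaks in that range had −0.33. The direction over all strong peaks thus depended on which list chose them. Both groupings hold the same summit peaks of HMGA2, so they are not separate observations. For site 10, all DMSO peaks at 5 to 6 had 2.89% higher by more than 0.5, whereas all AVJ16 peaks at 5 to 6 had 41.9% higher and a median of 0.34. HMGA2 had 1 higher of 6 in the first range, and 2 higher and 2 lower of 5 in the second, with a median of −0.03. The RNA level of HMGA2 with AVJ16 was not analysed here, and its part in these values was not tested.

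**Figure D4:**
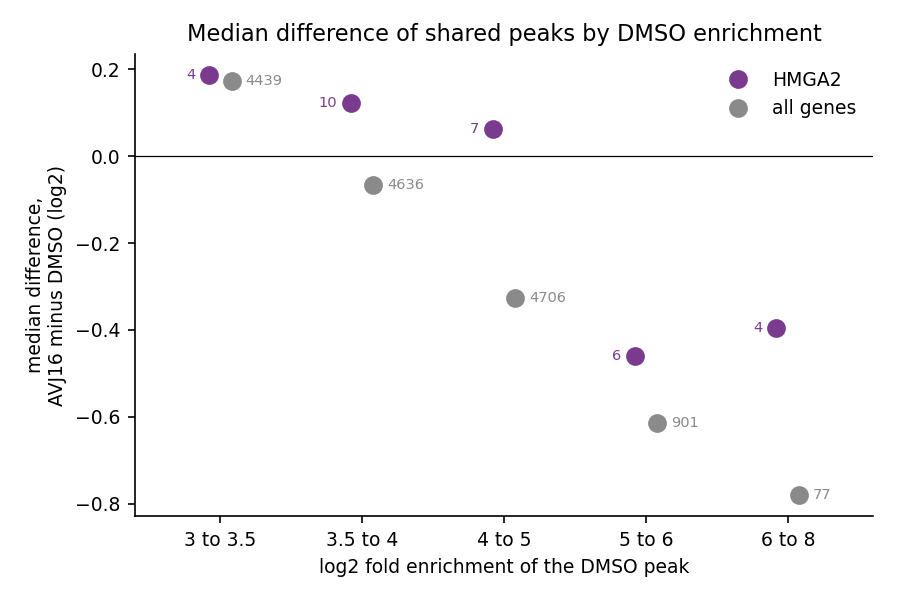
Median difference of shared peaks (AVJ16 minus DMSO, log2, y axis) by the log2 fold enrichment of the DMSO peak (x axis), for HMGA2 (purple) and all genes (grey), with the number of peaks beside each point. The medians of all genes go from 0.17 at 3 to 3.5 to −0.78 at 6 to 8, and those of HMGA2 from 0.19 to −0.40.

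Next, the let-7 matches were placed on the map. The mature let-7a to let-7i and miR-98 of RefSeq all share the seed GAGGUAG, so 1 search served the family. The 3’UTR held 4 matches to seed bases 2 to 8 (CUACCUC, plus strand only), at nt 21, 1256, 1668 and 2521. The match at nt 21 also had an A opposite base 1 (8 nt), and it lay 264 nt before the first DMSO peak. The match at nt 1668 lay 41 nt from the nearest DMSO peak. The match at nt 1256 lay in the summit site, under peaks of 5.63 with DMSO and 5.09 with AVJ16. The match at nt 2521 lay in site 11, under peaks of 4.81 with DMSO and 4.22 with AVJ16. Thus 2 of the 4 were covered, in both lists.

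Matches to seed bases 2 to 7 (UACCUC) numbered 8 in all, with those 4 included. Of the 8, 5 were covered in both lists, while 45.1% of the 3’UTR lay in a peak of either list. Those at nt 1107, 1619 and 2541 had an A opposite base 1, which makes them 7-nt matches of another kind. Only that at nt 2228 matched 6 nt alone. The match at nt 1107 in site 4 had peaks of 4.68 and 4.74, that at nt 1619 in site 7 had 4.22 and 3.74, and that at nt 2541 in site 11 had 4.81 and 4.09. The match at nt 2228 lay 95 nt from the nearest AVJ16 peak. At 4 of the 5 covered matches the AVJ16 value was the lower one, where 48.8% of the shared HMGA2 bases and 56.1% of all shared bases were below 0. The matches at nt 2521 and 2541 lay under the same DMSO peak. The matches to bases 2 to 8 at nt 1256 and 2521 had mean differences of −0.54 and −0.61. Of the 91 such matches covered in both lists over all genes, at any strength, 25.3% were lower by more than 0.5 (median −0.17). Of all shared DMSO peaks at 5 to 6 and at 4 to 5, 56.0% and 37.7% were lower by more than 0.5. Of all shared AVJ16 peaks in these ranges, 7.55% and 12.8% were. CUACCUC was held by 0.62% of all 17223 3’UTR peaks with DMSO. Whether let-7 was bound to these sites in H1299 cells was not tested.

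Other short motifs were counted in the 1353 nt that lay in a peak of either list and in the 1646 nt that did not. AUUUA, the core of AU-rich elements, occurred 10 times, 7 of them under peaks (5.17 against 1.82 per kb). It was held by 4 of the 33 HMGA2 DMSO peaks, against 11.8% of all DMSO 3’UTR peaks. At nt 702, 738, 812, 847 and 886 it lay in site 3. CAUU, which holds the CAU core known for IGF2BP proteins, was held by 9 of the 33 HMGA2 DMSO peaks, against 39.8% of all DMSO 3’UTR peaks. It occurred 19 times, 11 of them under peaks (8.13 against 4.86 per kb). CAUA did not follow this, with 5 of 15 under peaks (3.70 against 6.08 per kb). Nor did CAUC, with 3 of 8 (2.22 against 3.04 per kb). CAUA and CAUC were held by 5 and 3 of the 33 HMGA2 DMSO peaks, against 25.1% and 27.4% of all DMSO 3’UTR peaks. The CAU-containing motifs were thus not alike in this 3’UTR.

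GGAC, the core of the usual m6A sequence, occurred 7 times and lay under a peak once, at nt 762 in site 3. That is 0.74 per kb under peaks against 3.65 elsewhere. GGAC was held by 1 of the 33 HMGA2 DMSO peaks, against 15.3% of all DMSO 3’UTR peaks. Of the motifs the study names, UUUCCGAA, GNGGCCC and UCCUNNUGG did not occur in the 3’UTR, and only 0.029%, 1.28% and 0.77% of all DMSO 3’UTR peaks held them. UCCAG (2) and CCNGUU (1) lay outside all HMGA2 peaks, and 10.7% and 7.34% of all DMSO 3’UTR peaks held these. The Pumilio element UGUANAUA did not occur. AAUAAA, the polyadenylation signal, occurred 9 times, 2 of them under peaks (1.48 against 4.25 per kb). It was held by 2 of the 33 HMGA2 DMSO peaks, against 4.82% of all DMSO 3’UTR peaks. Base composition differed little, with 31.3% U and 20.8% C under peaks against 34.7% U and 17.4% C elsewhere. A motif count is a description of these letters and HMGA2 peaks are shorter than most, which lowers the chance that a peak holds a given motif.

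The genes most like HMGA2 in level were found among 250 genes with at least 10 shared 3’UTR peaks. By the distance between the medians of these peaks in both lists, the nearest were PPT1, a lysosomal thioesterase (4.26 with DMSO and 4.39 with AVJ16, 16 shared peaks), SLC41A1, a magnesium transporter (4.23 and 4.29, 13 shared peaks), and LMAN1, a cargo receptor of the secretory pathway (4.15 and 4.37, 23 shared peaks). HMGA2 had 4.22 and 4.35, which ranked 77th with DMSO and 43rd with AVJ16 among these 250 genes. These genes were chosen for that likeness, so their levels are a description only.

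HMGA2 was then set beside 25 genes of the let-7 and HMGA list, which holds known let-7 targets, the LIN28 and IGF2BP families and HMGA1. Of these, 19 had a DMSO peak, 15 an AVJ16 peak and 6 neither, where 5178 and 4660 of 20046 protein-coding genes had one. Their 144 shared peaks were lower by more than 0.5 in 23 cases (16.0%) and higher in 13 (9.03%). Both shares were near those of all shared peaks, 20.1% and 12.6%. CDK6 alone gave 10 of the 23 and IGF1R 7 of the 13, and touching peaks of a gene are not independent. By number of peaks HMGA2 (33 and 37) was second to the growth factor receptor IGF1R (41 and 40). None of the list genes had a peak as strong: the best were IGF1R at 5.93 with DMSO and NRAS, a RAS GTPase, at 5.89 with AVJ16.

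HMGA1, the paralogue of HMGA2, had 21 DMSO and 34 AVJ16 peaks, none of its 21 shared peaks differed by more than 0.5, and their median difference was −0.18. CDK6, a cell cycle kinase, had 25 and 30 peaks, and 10 of its 23 shared peaks were lower and none higher (median −0.39). LIN28B, which blocks let-7 maturation, had 10 and 5 peaks, with 3 of 7 shared peaks lower (−0.38). CCND2, a D-type cyclin, had 17 and 18 peaks, with 4 of 13 lower and 2 higher (−0.33). IGF1R had 7 of 40 higher and none lower (0.05). NRAS had 18 and 19 peaks, with 1 of 17 lower and 3 higher (0.14).

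The other list genes with at least 5 peaks in a list had few shared ones. TGFBR1, a TGF-beta receptor, had 5 and 13 peaks, with 2 of 5 shared peaks lower. HIC2, a transcriptional repressor, had 11 and 6 peaks, the cyclin gene CCND1 had 7 and 3, and IGF2BP1 itself had 6 and 3, with none past 0.5. Among the genes with at least 5 peaks in a list, HMGA2, NRAS and CCND2 had peaks past 0.5 in both directions. Their medians were −0.01, 0.14 and −0.33. Of the 2 higher HMGA2 peaks, 1 was a pair with the 115-nt AVJ16 peak of site 4.

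**Figure D5:**
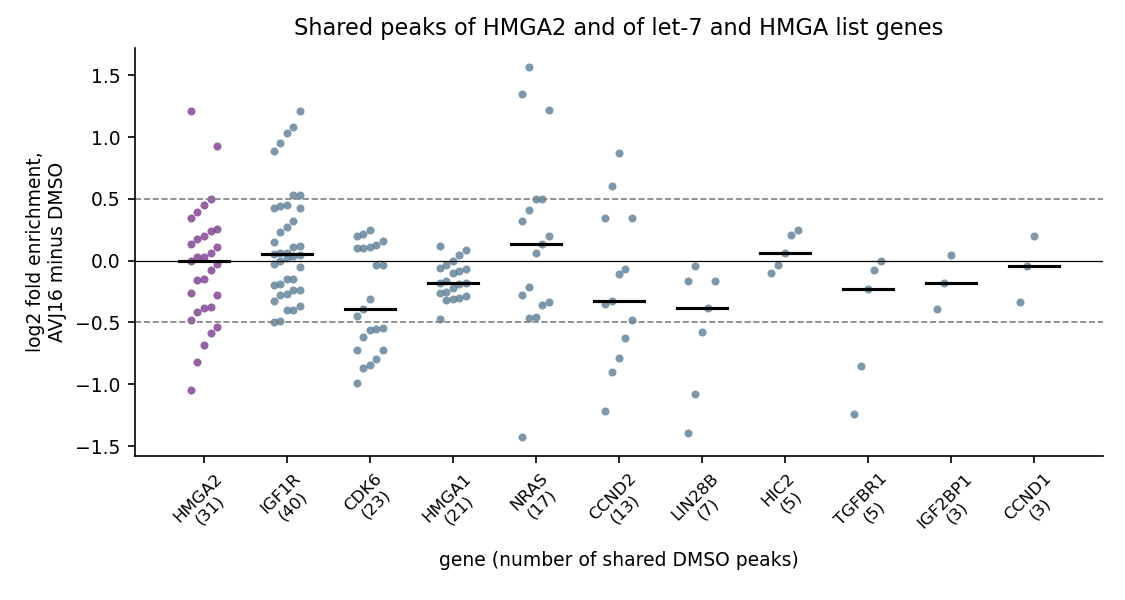
Differences in log2 fold enrichment (AVJ16 minus DMSO, y axis) at each shared DMSO peak of HMGA2 (purple) and of the let-7 and HMGA list genes with at least 5 peaks in a list (blue). Black lines are medians, dashed lines mark 0.5 in both directions, and the number of shared peaks stands under each gene. HMGA2 spreads from −1.05 to 1.21 around a median of −0.01, whereas HMGA1 stays between −0.47 and 0.12.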

How the data were processed

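IGF2BP1 eCLIP of H1299 cells was analysed from 2 deposited peak lists, 1 per treatment, grouped as labelled. Before deposition the authors removed adapters, repetitive-element reads and PCR duplicates, aligned with STAR, called clusters with CLIPper and set IP against paired SMInput reads. How the replicates were combined is not described. The deposited −log10 p values come from the authors' comparison of IP with SMInput and stop at 400. The log2 fold enrichment was deposited by the authors per peak, each list normalized to its own inputs. Replicates are pooled in the lists and read counts are not given, so depth is unknown and the interaction test of the paper was not repeated. RNA-seq and proteomics were not analysed here.

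The submitters' processing notes name hg38, whereas the Methods name an earlier Gencode release. Peaks were placed on GENCODE release 44 and GRCh38 here. As the partner of a DMSO peak, the AVJ16 peak with the largest overlap was taken (at least 1 nt), so an AVJ16 peak can serve several DMSO peaks (26 partners for 31 peaks). Touching or overlapping peaks of either list were joined to sites. Differences were also taken base by base and averaged over sites. The site averages, the grouping by AVJ16 enrichment, and the all-gene values for let-7 matches and for peaks at 4 or more were added after seeing the data. Peaks of HMGA2, list genes with at least 5 peaks, the 3 genes most like HMGA2 and genes inside its region on the same strand were named. The gene, the lists and the motifs were chosen with earlier results of these data known. The work used samtools 1.23.1, pysam 0.24.0, matplotlib 3.10.9, scipy 1.17.1, pandas 2.3.3 and numpy 2.4.6 under Python 3.11.15. The steps for pairing, joining and motif counts were tested on simulated data. Alternatives were other thresholds, pairings, join distances, limits and centring.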

Additional observations from a re-analysis of the deposited data

How the results depend on the processing

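Every HMGA2 peak had a −log10 p above 20, so the 14 values recomputed with that threshold could not change. Of the other 56, 22 stayed within the interval of the first value, or within 1.5 times it for counts, and 34 moved. The intervals treat touching peaks, and bases of the same peak, as independent, which they are not. They are too narrow, most of all for bases, so a value counted as moved can still lie within its error. At an enrichment of 4 or more, 17 DMSO and 23 AVJ16 peaks were left, coverage was 22.0% and 24.2%, and 1 site had a DMSO peak only. In that subset the median difference was −0.33 at shared peaks and −0.33 over bases, 43.3% of bases were lower, and 1 shared peak was higher. Joining touching peaks left 18 DMSO and 14 AVJ16 peaks, and joining within 50 nt left 1 DMSO-only site. Requiring 50% of each peak to overlap left 66.7% of DMSO peaks with a partner, 3 lower and 1 higher. The share over all genes at that overlap was not computed, so this value has no background. Pairing each peak once left 1 higher. Centring on the median of all genes gave 4 higher peaks, a base median of 0.10, 19.8% of bases lower and 11.6% higher, and 1 lower and 2 higher sites. With a limit of 0.25, 11 peaks were lower and 7 higher, 34.1% and 21.4% of bases, and 3 sites were higher. With a limit of 1, 1 peak was lower and 1 higher, 4.51% and 1.47% of bases, and 0 sites in either direction. Matches to seed bases 2 to 7 gave 5 let-7 matches in a peak. The count of 10 sites in both lists ranged from 7 to 10.

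No paired analysis was possible because each deposited list pools the replicates of its treatment. A peak under either threshold of the authors is not listed, whatever its level, and a value averages over a peak whose ends differ between lists. The error of a difference is unknown, and which batch or replicate carried it cannot be told apart.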

Other observations

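Chains of touching peaks within 1 list showed how finely the HMGA2 3’UTR was split. With DMSO the 33 peaks formed 18 chains, and the longest ran over 203 nt from nt 749 to 951 in site 3. With AVJ16 the 37 peaks formed 14 chains, and the longest ran over 183 nt from nt 1197 to 1379 in the summit. Among all chains these ranked 915th of 16870 and 1112th of 16098 by length.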
